A study of Homo sapiens with 18 samples.

Results

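The response of MDA-MB-231 cells to 3 days of induced G0S2 was measured by comparing 3 libraries taken at day 3 of doxycycline with 3 control libraries taken at day 0. These 6 libraries, of 18 in the series, were chosen by their cell line and day, and all 14308 genes listed for the line were compared. MDA-MB-231 is a breast cancer cell line without estrogen receptor, and its labels give control or induced G0S2 for each library. The control libraries are titled with day 0 and the induced ones with day 3 of doxycycline, and 3 further libraries of the line came from day 15. The growth protocol, worded alike for all 18 samples, states 15 days of doxycycline at 0.5 ug/ml, also for the controls, so that their lack of doxycycline rests on the titles and the control label. The second line of the series, T47D, is estrogen receptor positive and was sampled at the same days. No group that had doxycycline without the inducible gene was analysed here, so what G0S2, doxycycline or the vector did cannot be told apart. The sources used here do not say whether the induced cells are 1 clone or a pool. The series text names Aza-resistant lines in biological triplicate, which the sample labels do not, and the labels were followed.

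G0S2 is a small protein known to bind and inhibit PNPLA2, the lipase that starts the breakdown of stored triglyceride. Cells balance such stores against new synthesis through the SREBP transcription factors, which INSIG proteins and SCAP hold in the endoplasmic reticulum while sterols are plentiful. When sterols or unsaturated fatty acids fall short, SREBPs move to the nucleus and raise the genes of cholesterol synthesis, fatty acid synthesis and lipoprotein uptake, INSIG1 itself among them.

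The tables hold log2 CPM (reads scaled to library size), from which whole reads were recovered: 42850000 to 52380000 listed reads per control library and 40760000 to 46960000 per day 3 library, rounded. Scaling factors lay between 0.991 and 1.0039 over the 9 MDA-MB-231 libraries. Replicates of a group differed from each other by more than sampling noise, and each was counted once. Libraries are numbered by replicate, and no sample label says that they are separate cultures. The p-values therefore reflect how much the libraries vary, and that variation may be technical. All 10 genes chosen as markers of the line (VIM, CD44, EGFR, AXL, MSN, CAV1, CAV2, PLAUR, ZEB1 and FOSL1) were listed, with a summed level of 8070 to 8111 CPM in control and 8079 to 8090 CPM at day 3. Of 4 markers of estrogen receptor activity, ESR1, PGR and TFF1 were not among the listed genes. The other, GREB1, was listed, with 1.434 to 1.535 CPM in control and 2.079 to 2.151 CPM at day 3. Markers of other cells were few: 3 of 12 leukocyte genes were listed (107.1 to 110.8 CPM summed in control, 107.1 to 110.6 at day 3), 4 of 10 fibroblast genes (15.6 to 16.7, then 13.9 to 16.2) and 4 of 11 endothelial genes (93.7 to 101.3, then 90.5 to 95.4), of which CD34 was called. Listed were the leukocyte genes PTPRC, CD14 and LAPTM5 and the fibroblast genes LUM, PDGFRB, COL1A1 and COL1A2. The listed endothelial genes were PECAM1, KDR, ESAM and CD34. CD3E, MS4A1, DCN, FAP, CDH5 and VWF were among the markers not listed. Of 10 listed replication-dependent histone genes, which track RNA selection, none was called, with 0 at an unadjusted p under 0.05 by limma.

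G0S2 checks the labels. It had 25.48, 25.02 and 25.09 CPM in the 3 control libraries and 1484, 1506 and 1429 CPM at day 3. The groups lay far apart, 58.3-fold on the fitted scale (log2 difference 5.87, SE 0.0459, adjusted p = 1.31e-14). The gene (ENSG00000123689.5) lies at chr1:209675420-209676388 on the plus strand of GRCh38 in GENCODE release 29. Introduced and endogenous G0S2 reads are counted together. The induced level was close among the 3 day 3 libraries, and by day 15 it was 1209, 1294 and 1103 CPM, a fall of 0.30 log2 from day 3 (adjusted p = 0.00554, and 0.0939 with plain variance moderation).

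Outside G0S2 the response was made of many small differences. At an adjusted p under 0.05, 128 genes rose (0.895% of 14308) and 125 fell (0.874%), and the median size among them was 0.17 log2, a fold of 1.13. Of the rises, 92 were under 0.25 log2, and of the falls 95 were; 11 genes rose and 11 fell by over 0.5 log2. A called gene had a median control level of 70.7 CPM and the listed genes as a whole one of 24.6 CPM. The level at day 3 lay above all controls in 1480 genes (10.3%) and below all controls in 1448 (10.1%), and 252 of the 253 called genes were among these. Each count rests on a fit to all 9 libraries of the line with group means, with n = 3 libraries a group, and SE stands for the standard error that the fit gives a log2 difference. The number of calls depends on the variance model and on single libraries: 63 genes were called with plain moderation, 476 in a fit over the 6 libraries alone and 418 without day 15 library 3. Without control libraries 1 and 2 there were 138 and 121 calls, and 121, 119 and 147 without day 3 libraries 1, 2 and 3. In every one of the 6 omissions of a control or day 3 library, 92 genes were called, 41 higher and 51 lower, and the members named first in what follows are mostly of this kind.

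**Figure D1:**
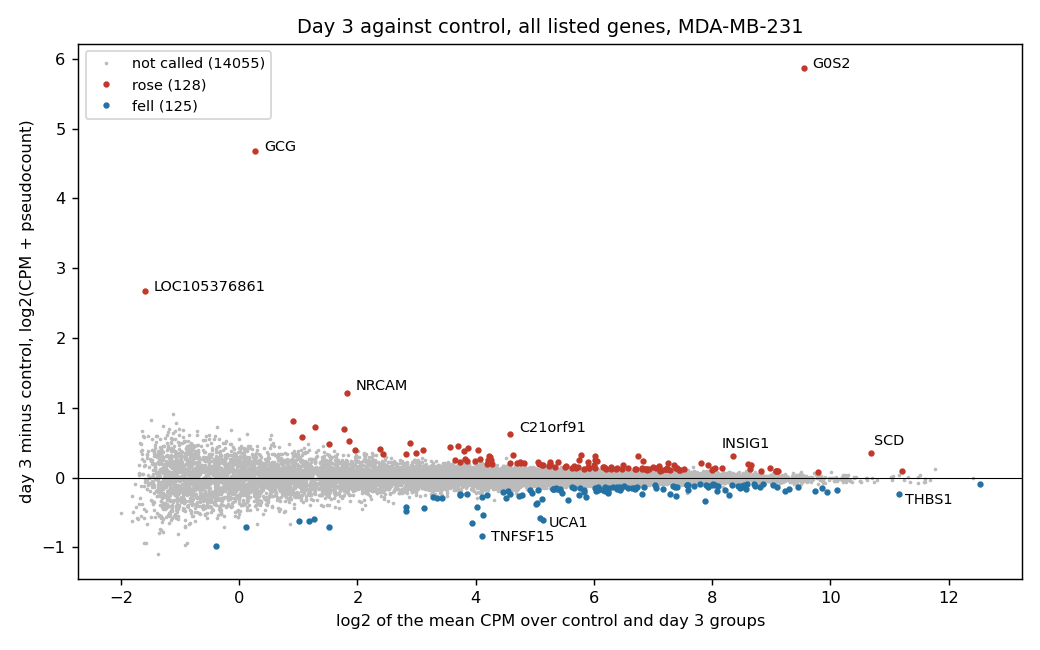
Each point is 1 of 14308 listed genes, with the log2 of its mean CPM on the x axis and the day 3 minus control difference, log2(CPM + pseudocount), on the y axis; 128 genes that rose are red and 125 that fell are blue. G0S2 stands apart at 5.87, GCG and LOC105376861 rose from almost no reads, and most called genes lie within 0.5 log2 of 0.

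Lipid synthesis genes were among the rises. Of 62 listed genes in the lists for cholesterol synthesis, SREBP control with sterol uptake, and fatty acid synthesis, 21 rose and 0 fell, and these 21 were 16.4% of all rises. Their differences ran from 0.09 to 0.35 log2 with a median of 0.17, and 13 of the 21 were called in all 6 omissions of a control or day 3 library. All 21 were higher under every setting tried, but 5 were called with plain moderation. The 3 largest, SCD, INSIG1 and LPIN1 (the last from the triglyceride list), were higher by 27.1%, 23.7% and 24.2%.

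Cholesterol is made from acetyl-CoA through mevalonate and squalene. Of 22 listed enzymes of this route 8 rose, 0 fell and 14 were not called, and all 22 lay above 0. Every day 3 library lay above every control in 13 of the 22 and in 10.3% of all listed genes. The list's median was 0.11 log2, against 0.0016 over all listed genes. At the head of the route, HMGCS1, which makes HMG-CoA, had 102.8, 103.9 and 108.5 CPM in control and 121.5, 125.7 and 124.2 CPM at day 3 (0.24, SE 0.0292, adjusted p = 7.04e-06). The 3 day 3 libraries lay well above the highest control. In the isoprenoid steps, IDI1, the isopentenyl diphosphate isomerase, rose by 0.18 (SE 0.0235, adjusted p = 1.4e-05), and FDPS, the farnesyl diphosphate synthase, rose by 0.21 (SE 0.0274, adjusted p = 1.77e-05). IDI1 lies beside WDR37 (0.17, adjusted p = 0.0346, lost in 5 of the 6 omissions at up to 0.25), and whether counting used strand is not given in the sources used here. FDPS had 212.7, 212.1 and 198.4 CPM in control and 241.3, 236.9 and 241.5 CPM at day 3. Control replicate 3 was the lowest of the controls here, as it was for LSS, DHCR7, FASN and ACLY, and the day 3 libraries lay above all 3 controls.

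Beyond the branch to squalene, FDFT1, the squalene synthase, rose by 0.12 (SE 0.0232, adjusted p = 0.00201), the cyclase LSS by 0.17 (SE 0.0337, adjusted p = 0.00426), the demethylation enzyme MSMO1 by 0.14 (SE 0.0236, adjusted p = 0.000557) and the last reductase DHCR7 by 0.12 (SE 0.0305, adjusted p = 0.0351). Several enzymes did not pass the test: SQLE, the epoxidase, was at 0.09 (adjusted p = 0.35) with overlapping groups, and CYP51A1 at 0.07 (adjusted p = 0.129) with no overlap. The calls of HMGCS1, IDI1, FDPS, FDFT1 and MSMO1 held without each control or day 3 library. LSS was not called without day 3 library 2 (adjusted p = 0.0608). DHCR7 was not called without control libraries 2 or 3, any day 3 library or day 15 library 1 (0.0552 to 0.181). The count of rises was 5 without day 3 library 2 and, with plain moderation, 2, namely HMGCS1 and IDI1.

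The genes that control SREBP and take up sterols moved in the same direction in part. INSIG1, the sterol-sensing anchor of the SREBP complex and itself a classic SREBP target, had 293.9, 295.5 and 291.1 CPM in control and 369.5, 361.7 and 358.1 CPM at day 3 (0.31, SE 0.0237, adjusted p = 1.26e-09). Controls were close to each other and all 3 day 3 libraries lay well above them. SREBF1, which encodes SREBP-1, had 63.77, 59.61 and 59.86 CPM in control and 73.13, 70.89 and 72.68 CPM at day 3 (0.24, SE 0.0388, adjusted p = 0.000334). STARD4, a cholesterol carrier, rose by 0.15 (SE 0.0339, adjusted p = 0.0119). SREBF2, which encodes the SREBP mainly tied to sterol genes, was at 0.09 with no overlap and did not pass (adjusted p = 0.075).

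Of the 18 listed genes of this control list 5 rose, 0 fell and 13 were not called, with a median of 0.05. Day 3 lay above all controls in 9 and below in 1, against 10.3% and 10.1% of all listed genes. INSIG1 and SREBF1 were called in every omission. STARD4 was not called without control library 2 or any single day 3 library (adjusted p 0.0573 to 0.0865). The list had 3 rises in each of these 4 omissions, and with plain moderation only INSIG1 was called. The 11 listed genes of sterol efflux and LXR response had none called by limma, with 2 higher at an unadjusted p under 0.05; ABCA1, the sterol exporter, was at 0.06 (adjusted p = 0.586).

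Fatty acid genes included SCD, whose p was the smallest of the named rises after that of G0S2. SCD, the desaturase that makes oleate and palmitoleate, had 1433, 1452 and 1457 CPM in control and 1839, 1837 and 1841 CPM at day 3 (0.35, SE 0.0178, adjusted p = 2.87e-13). The 3 day 3 libraries were almost identical and far above the controls. FASN, the fatty acid synthase, went from 398.8, 382.9 and 358.2 CPM to 430.0, 433.9 and 431.7 CPM (0.19, SE 0.0325, adjusted p = 0.00265), again with control library 3 lowest and no overlap. FADS2 and FADS1, neighbouring genes for the desaturases of long polyunsaturated fatty acids, rose by 0.20 (SE 0.023, adjusted p = 2.94e-06) and by 0.13 (SE 0.0215, adjusted p = 0.000318). Acetyl-CoA supply and fatty acid activation followed in smaller steps, with ACSS2, the cytosolic acetyl-CoA synthetase, at 0.22 (SE 0.0372, adjusted p = 0.000647), ACLY, the citrate lyase, at 0.09 (SE 0.024, adjusted p = 0.0445), ACSL1 at 0.13 (SE 0.029, adjusted p = 0.0103) and ACSL3 at 0.12 (SE 0.0275, adjusted p = 0.023). ACACA, the carboxylase between ACLY and FASN, was at 0.06 and was not called (adjusted p = 0.208).

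In all, 8 of 22 listed genes of fatty acid synthesis rose, 0 fell and 14 were not called, with a median of 0.07. Day 3 lay above all controls in 9 of the 22 and in 10.3% of all listed genes. SCD, FADS2, FADS1, FASN and ACSS2 were called in every omission. ACSL1 was not called without control library 2 or day 3 libraries 1 or 2 (adjusted p 0.0801 to 0.107). ACSL3 was not called without control libraries 1 or 2 or any day 3 library (0.0699 to 0.173), and ACLY without control libraries 2 or 3, any day 3 library, day 15 library 1 or, at 0.0544, with each library centred on its median (0.0544 to 0.23 in all). The count of rises was 5 without control library 2 or day 3 libraries 1 or 2, and with plain moderation SCD and FADS2 alone were called.

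**Figure D2:**
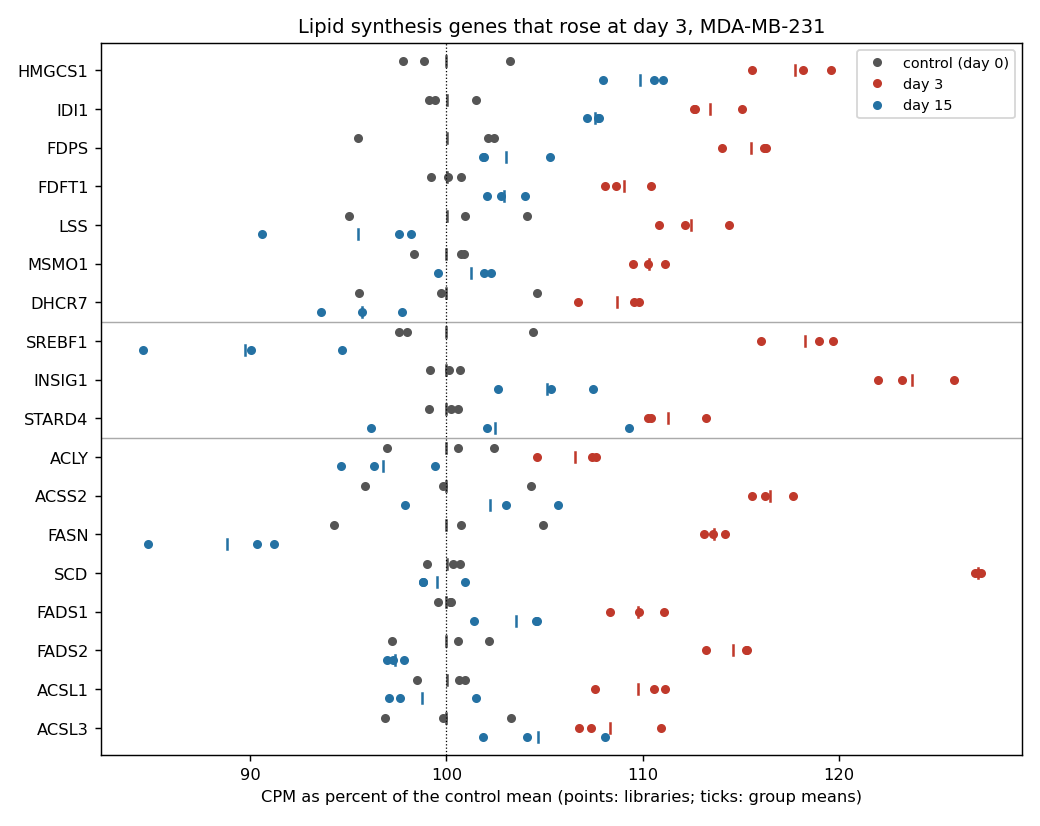
Points are libraries and ticks are group means, as a percent of the control mean CPM, for 18 of the 21 lipid genes that rose at day 3: cholesterol synthesis above, SREBP control and sterol uptake in the middle, and fatty acid synthesis below. Day 3 libraries (red) lie to the right of all controls (grey) in every row, SCD furthest, while at day 15 (blue) the median over the 21 genes is 0.03 log2, and the libraries of SREBF1 and FASN lie below all controls.

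Promoter sequences are shown for SCD, INSIG1 and FDPS. These genes had the largest rises among the lipid genes chosen for a single promoter window that held CCAAT. Each of the 3 had to hold CCAAT to be shown, so its presence in them is no finding. The sequences are the 250 bases before a RefSeq start on GRCh38.p14, written 5′ to 3′ along the gene, with matches in capitals.
SCD, chr10:100346983-100347232, plus strand: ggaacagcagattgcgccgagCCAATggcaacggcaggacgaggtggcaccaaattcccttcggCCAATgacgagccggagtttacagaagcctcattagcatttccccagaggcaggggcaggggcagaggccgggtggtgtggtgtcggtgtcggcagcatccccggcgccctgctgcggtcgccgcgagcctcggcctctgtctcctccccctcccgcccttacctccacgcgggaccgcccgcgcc
INSIG1, chr7:155297628-155297877, plus strand: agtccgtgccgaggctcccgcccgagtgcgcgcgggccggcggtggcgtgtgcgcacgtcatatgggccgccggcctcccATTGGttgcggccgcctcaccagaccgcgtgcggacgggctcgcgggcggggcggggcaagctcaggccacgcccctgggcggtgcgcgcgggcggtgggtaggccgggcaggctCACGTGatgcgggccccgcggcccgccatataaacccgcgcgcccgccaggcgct
FDPS, chr1:155308616-155308865, plus strand: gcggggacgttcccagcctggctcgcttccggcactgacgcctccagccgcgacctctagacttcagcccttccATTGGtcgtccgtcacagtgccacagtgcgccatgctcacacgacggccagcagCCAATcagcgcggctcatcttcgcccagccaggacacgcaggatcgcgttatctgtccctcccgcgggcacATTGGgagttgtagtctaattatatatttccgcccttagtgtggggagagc
The letters searched on both strands were CCAAT, the box bound by NF-Y, a factor known to act beside SREBP at sterol genes; TCACNCCAC, the core of the classic sterol element; and CACGTG, an E-box. The capitals ATTGG are CCAAT read on the opposite strand. SCD has 2 CCAAT matches, FDPS has 3, and INSIG1 has 1 together with 1 CACGTG. Windows were found for 16 of the 21 lipid genes that rose, and 13 of these 16 genes (81.2%) held CCAAT in at least 1 window. The share was 66.7% of the lipid genes that were not called (22 of 33) and 41.7% of all listed genes with a window, so CCAAT was frequent in the lipid lists whether or not a gene rose. By window, 55.6% of 27 windows of risen lipid genes held CCAAT, against 53.2% of 47 windows of lipid genes not called. The share was 32.0% of all 35116 windows of the same length. TCACNCCAC was in 1 of the 27 windows (3.7%), in 4.26% of those of lipid genes not called and in 0.883% of all windows. CACGTG was in 1 (3.7%), against 10.6% and 6.34%.

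Lipid storage and breakdown genes had few calls. Of 13 listed lipolysis genes G0S2 alone was called, and its partners were not called. PNPLA2, the lipase that G0S2 inhibits, had 40.66, 40.12 and 38.23 CPM in control and 37.27, 37.44 and 38.01 CPM at day 3 (-0.08, SE 0.0435, adjusted p = 0.457). Its day 3 libraries lay just below the controls. ABHD5, the PNPLA2 activator, was at -0.02 (adjusted p = 0.804), the hormone-sensitive lipase LIPE at 0.0039 (adjusted p = 0.994) and MGLL, the monoglyceride lipase, at 0.01 (adjusted p = 0.94). HILPDA, a further PNPLA2 inhibitor, was at 0.01 (adjusted p = 0.976). Among 18 listed genes of droplet coats and triglyceride synthesis, LPIN1 alone rose. LPIN1 encodes lipin 1, a phosphatidate phosphatase that is also known as an SREBP target. It had 93.49, 97.21 and 97.60 CPM in control and 118.3, 119.0 and 120.8 CPM at day 3, a clear separation (0.31, SE 0.029, adjusted p = 4.27e-08). The droplet coat genes PLIN2 (-0.04, adjusted p = 0.65) and PLIN3 (0.0035, adjusted p = 0.981) and the acyltransferase DGAT1 (0.05, adjusted p = 0.85) were not called. These are RNA levels, and lipase activity was not measured.

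Of 31 listed PPAR targets and fatty acid oxidation genes, EHHADH, a peroxisomal enzyme, rose (0.25, SE 0.0637, adjusted p = 0.0376), while UCP2, a mitochondrial carrier (-0.18, SE 0.0339, adjusted p = 0.00281), and CPT1A, the gate of mitochondrial fatty acid import (-0.12, SE 0.0304, adjusted p = 0.0297), fell. UCP2 was called in each omission; EHHADH was lost in all 6 (adjusted p up to 0.188) and CPT1A in all but that of day 3 library 1 (up to 0.229), and none of the 3 was called with plain moderation. None of 48 respiratory chain and ATP synthase genes was called by limma, with 3 higher and 2 lower at an unadjusted p under 0.05, and a median of 0.0014. The same held for 36 genes of mitochondrial translation and stress, with 1 higher and 6 lower at an unadjusted p under 0.05 and a median of -0.04. LIPG, a secreted phospholipase of the lipase family (0.29, SE 0.0551, adjusted p = 0.00241), was named after its values were seen; its day 3 libraries at 20.24, 21.28 and 20.82 CPM lay above controls at 17.66, 15.98 and 17.23 CPM.

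The rise of the lipid genes was smaller at day 15. The day 3 and day 15 groups share the same controls, so their values are set side by side: the 21 genes had a median of 0.17 at day 3 and of 0.03 at day 15. The difference of day 15 from day 3 was tested on its own, and in it 354 genes rose (2.47%) and 409 fell (2.86%). Of the 62 lipid genes 24 fell and 0 rose from day 3 to day 15, and of the 21 that rose at day 3, 18 fell. The 21 were picked for high values in the same day 3 libraries, which favours a fall in this test and a lower median at day 15. SCD was at 1430, 1430 and 1461 CPM, which overlaps its controls (0.35 log2 below day 3, adjusted p = 3.5e-13). FASN ended at 343.4, 346.7 and 322.2 CPM, under all 3 controls, and was 0.36 below day 3 (adjusted p = 1.36e-06). SREBF1 was at 54.99, 57.84 and 51.64 CPM, also under the controls (0.40 below day 3, adjusted p = 2.73e-07). INSIG1 fell by 0.23 but stayed above the controls at 309.2, 315.5 and 301.2 CPM (adjusted p = 4.62e-07). IDI1 and ACSL3 did not pass this test (adjusted p = 0.0537 and 0.305). The counts in this comparison rest on single libraries and on the variance model: 14 and 16 lipid genes fell without day 3 libraries 1 and 2, and 6 with plain moderation, those being among the 21. With each library centred on its median, 18 lipid genes fell, while over all genes the split became 570 rises to 316 falls. SCD, FASN, FADS2, SREBF1 and INSIG1 were called in each omission and setting.

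The single largest rises outside G0S2 were in genes of several roles. NRCAM, a neuronal cell adhesion molecule of the immunoglobulin family at chr7:108147623-108456717 (minus strand), had 2.23, 2.02 and 2.07 CPM in control and 5.11, 4.77 and 5.02 CPM at day 3 (1.21, SE 0.103, adjusted p = 7.57e-09). The groups lay wide apart, and day 15 stood at 5.12, 5.29 and 5.89 CPM. C21orf91 rose from 19.48, 17.67 and 19.72 CPM to 29.23, 30.00 and 28.08 CPM (0.62, SE 0.0511, adjusted p = 4.07e-09). MPPE1, a metallophosphoesterase gene, rose by 0.73 (SE 0.128, adjusted p = 0.00117), and CUBN, the vitamin B12 receptor subunit cubilin, by 0.69 (SE 0.12, adjusted p = 0.000906). ENOX1 (0.50, SE 0.0906, adjusted p = 0.00149), SLCO4C1, an organic anion transporter (0.46, SE 0.0667, adjusted p = 8.45e-05), ZNF641, a zinc finger gene (0.44, SE 0.0653, adjusted p = 0.00012), and C6orf223 (0.43, SE 0.0618, adjusted p = 7.43e-05) followed. Each of these 8 was called in every omission, and CUBN and ENOX1 were not called with plain moderation (adjusted p = 0.0691 and 0.128). ZFHX2 (0.58) and QPCT (0.41) were each lost in 4 omissions, with adjusted p up to 0.146 without day 3 library 2 for ZFHX2 and up to 0.203 without that library for QPCT, and MORN1 (0.48) in all but that of control library 1 (up to 0.189).

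Further genes with very small p at day 3 were NDE1, a centrosome and dynein regulator (0.31, SE 0.0333, adjusted p = 7.46e-07), and TMEM154 (0.33, SE 0.0368, adjusted p = 1.62e-06). NDE1 went from 58.02, 57.95 and 57.59 CPM to 70.93, 73.82 and 70.30 CPM, with tight controls and no overlap. CYP1B1, a cytochrome P450 of the aryl hydrocarbon response named after its values were seen, rose from 139.1, 140.1 and 144.7 CPM to 161.8, 163.9 and 163.5 CPM (0.21, SE 0.0266, adjusted p = 1.36e-05). It stood higher again at day 15, at 204.7, 195.4 and 201.1 CPM (0.30 above day 3, adjusted p = 6.22e-08), and these 3 genes were called in every omission.

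Another 2 rises began from almost no reads. GCG, the gene for proglucagon at chr2:162142873-162152404 (minus strand), had 3, 1 and 0 reads in the controls and 87, 116 and 111 reads at day 3. The ratio of summed CPM was 84.2 (95% exact interval 32.6 to 311.1, which covers counting error only), and the test was past the threshold (adjusted p = 5.54e-13). All 3 induced libraries held the gene at a similar level, and day 15 had 54, 56 and 54 reads. Its listed neighbours DPP4 and IFIH1 were not called (0.03, adjusted p = 0.934, and -0.04, adjusted p = 0.881). LOC105376861, an unnamed locus chosen after its values were seen, had 2, 4 and 0 reads in control and 28, 29 and 24 at day 3 (ratio 14.5, interval 6.37 to 40.6, adjusted p = 1.03e-05). It is listed next to FUCA1, a lysosomal fucosidase, which rose (0.14, adjusted p = 0.043). Reads of such overlapping or adjacent loci may be split or merged by the counting. FUCA1 was lost in all omissions but that of control library 1 and of day 15 libraries 2 and 3 (0.0644 to 0.265).

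Among the falls TNFSF15, a TNF-family cytokine at chr9:114784635-114806126 (minus strand), was the steepest named gene. It had 20.50, 22.60 and 23.41 CPM in control and 12.68, 12.32 and 12.26 CPM at day 3 (-0.83, SE 0.0667, adjusted p = 2.36e-09). The day 3 libraries sat far below the lowest control, and day 15 was at 9.71, 9.54 and 11.12 CPM. UCA1, a long non-coding RNA studied in bladder and other cancers, went from 43.40, 41.44 and 43.11 CPM to 27.28, 28.38 and 27.97 CPM (-0.61, SE 0.0466, adjusted p = 1.06e-09). ALPP, the placental alkaline phosphatase, went from 42.17, 40.76 and 39.25 CPM to 27.25, 26.71 and 27.90 CPM (-0.58, SE 0.0458, adjusted p = 2.12e-09), and may share reads with its close relatives. PPME1, which removes the methyl group of protein phosphatase 2A, fell by 0.33 (SE 0.0236, adjusted p = 2.91e-10), from 262.8, 260.7 and 260.1 CPM to 207.5, 204.7 and 210.0 CPM. ATP1B1, the beta subunit of the sodium pump, fell by 0.24 (SE 0.0233, adjusted p = 7.3e-08). LOC105372338, an unnamed locus, fell by 0.66 (SE 0.0683, adjusted p = 3.94e-07). All 6 were called in every omission and with plain moderation. MYH15 (-0.48, adjusted p = 0.000593), SAA1 (-0.43, adjusted p = 0.00265) and ANKRD13B (-0.42, adjusted p = 0.00265) fell as well and held in every omission, SAA1 with a near-identical copy that may share its reads and with an adjusted p of 0.0935 under plain moderation. AQP5, a water channel, fell by 0.71 (adjusted p = 0.00334), but not without control library 1 (0.062) or with plain moderation (0.0935). SHOC1 (-0.63) was lost in all omissions but that of day 3 library 1 (adjusted p up to 0.227).

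Some matricellular and other genes known as targets of TGF-beta and YAP fell. Of 28 listed genes 8 fell, 0 rose and 20 were not called, and the median was -0.06. Day 3 lay below all controls in 11 of the 28 and in 10.1% of all listed genes. THBS1, the matrix glycoprotein thrombospondin 1 at chr15:39581079-39599466 (plus strand), had 2447, 2487 and 2491 CPM in control and 2100, 2113 and 2126 CPM at day 3 (-0.23, SE 0.017, adjusted p = 7.59e-10). Its day 3 libraries were all well below the controls. ANKRD1, a cardiac ankyrin repeat protein much used as a YAP readout, went from 1037, 1043 and 1078 CPM to 899.4, 902.4 and 932.6 CPM (-0.21, SE 0.0266, adjusted p = 3.99e-05). F3, tissue factor, fell by 0.17 (SE 0.0228, adjusted p = 2.62e-05). CCN1 fell by 0.16 (SE 0.0192, adjusted p = 7.04e-06) and CCN2, also called CTGF, by 0.14 (SE 0.0234, adjusted p = 0.000508). The secreted regulators BMP4 and DKK1, a BMP ligand and a Wnt inhibitor, fell by 0.18 (SE 0.0241, adjusted p = 2.92e-05) and by 0.16 (SE 0.0226, adjusted p = 5.73e-05). All 8 falls were called in each omission; with plain moderation THBS1 and CCN1 were called and the others had adjusted p of 0.0506 to 0.0965. At day 15 the 7 genes named here lay 0.11 to 0.21 log2 below control. TGM2, a transglutaminase that crosslinks matrix and was named after its values were seen, fell by 0.19 (SE 0.0223, adjusted p = 2.26e-06; 0.0543 with plain moderation).

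Inhibitors and ligands of inflammatory signalling also had falls. NFKBIA, the NF-kB inhibitor that NF-kB itself induces, had 46.55, 48.12 and 47.24 CPM in control and 39.69, 40.09 and 41.59 CPM at day 3 (-0.23, SE 0.0373, adjusted p = 0.000508). BIRC3, an NF-kB target that blocks cell death, fell by 0.18 (SE 0.0388, adjusted p = 0.0114), though not without control library 3 (0.0507), day 3 library 2 (0.0942) or with plain moderation (0.0937). These were the 2 called genes among 21 NF-kB factors and inhibitors, whose median was -0.04. Of 37 listed cytokines, chemokines and growth factors 4 fell and 2 rose, with a median of -0.09. Day 3 lay below all controls in 12 of the 37 and in 10.1% of all listed genes. CSF1, the macrophage growth factor, had 171.6, 172.5 and 164.7 CPM in control and 146.8, 144.4 and 142.7 CPM at day 3 (-0.23, SE 0.0273, adjusted p = 3.84e-06). The day 3 libraries were lower by more than the spread of either group. IL11 fell by 0.15 (SE 0.0314, adjusted p = 0.00937) and the ErbB ligand NRG1 by 0.14 (SE 0.034, adjusted p = 0.032), beside TNFSF15; the rises were VEGFA and GCG. The chemokines CXCL8 (-0.02, adjusted p = 0.969) and CCL2 (-0.33, adjusted p = 0.0995) and the cytokine IL6 (-0.11, adjusted p = 0.672) were not called at day 3. TNFSF15 and CSF1 were called in every omission, whereas IL11 was lost without control library 2 or day 3 libraries 1 or 3 (0.0674 to 0.133) and NRG1 in all 6 (up to 0.225). The count of falls was 2 without control library 2 or day 3 libraries 1 or 3 and with plain moderation, 7 without day 15 libraries 2 or 3 and 9 in the fit over 6 libraries.

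Early response genes split. Of 33 listed, EGR1, an immediate early transcription factor, rose (0.39, SE 0.103, adjusted p = 0.0471), while IER3, a stress-induced survival gene (-0.18, SE 0.0255, adjusted p = 5.22e-05), and the phosphatases DUSP1 (-0.26, SE 0.046, adjusted p = 0.00123) and DUSP10 (-0.17, SE 0.0404, adjusted p = 0.0285) fell. DUSP1 had 28.93, 30.26 and 28.02 CPM in control and 24.32, 24.14 and 24.34 CPM at day 3, with nearly equal day 3 libraries. IER3 and DUSP1 were called in every omission, and EGR1 and DUSP10 in none of the 6 (adjusted p up to 0.184 and 0.143). MYC was not called, at 102.2, 102.6 and 103.1 CPM in control and 103.3, 102.9 and 102.5 CPM at day 3 (0.0039, adjusted p = 0.975). In the fit over 6 libraries, and without day 15 libraries 2 or 3, 5 genes of the list fell.

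**Figure D3:**
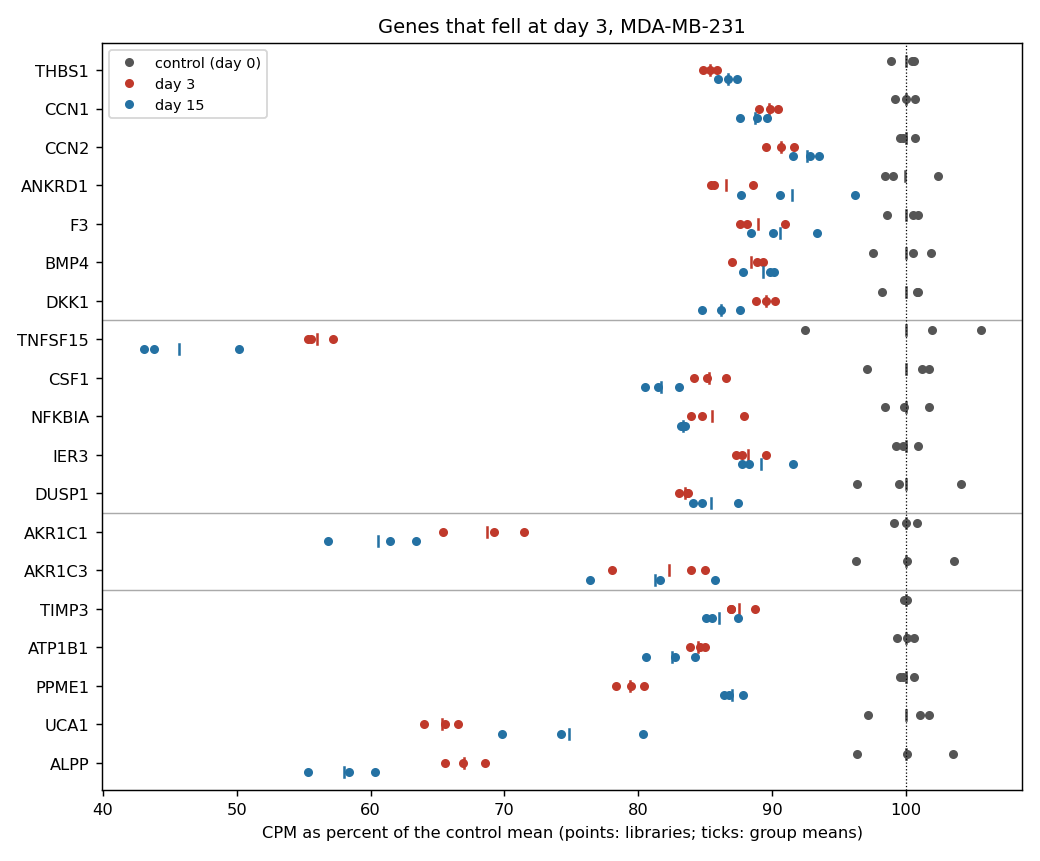
Points are libraries and ticks are group means, as a percent of the control mean CPM, for 19 genes that fell at day 3: from the top, TGF-beta and YAP targets, secreted ligands with NF-kB and early response genes, AKR1C enzymes, and other genes. Day 3 libraries (red) lie left of all controls (grey) in every row, TNFSF15 furthest, and day 15 libraries (blue) lie left of the controls too.

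Redox enzymes with falls were mostly of 1 family. The aldo-keto reductases AKR1C1, AKR1C2 and AKR1C3, which reduce steroids and lipid aldehydes, are close relatives that share much of their sequence, so reads may be split between them. AKR1C1 had 20.78, 20.94 and 20.58 CPM in control and 13.59, 14.38 and 14.85 CPM at day 3 (-0.54, SE 0.059, adjusted p = 9.15e-07). AKR1C3 went from 66.49, 64.24 and 61.80 CPM to 53.89, 54.52 and 50.08 CPM (-0.28, SE 0.0423, adjusted p = 0.000144; 0.104 with plain moderation). Both were called in every omission and neither had overlapping groups. AKR1C2 fell by 0.61 (SE 0.146, adjusted p = 0.0226), but was lost in all omissions but that of day 3 library 1 (up to 0.161). NQO1, a quinone reductase and NRF2 target, fell by 0.11 (SE 0.0265, adjusted p = 0.0352), held only without control library 3 of the 6 omissions (up to 0.238), and at day 15 was higher than at day 3 by 0.26 (adjusted p = 5.74e-07). These were the 4 falls among 26 listed NRF2 and AKR1C genes, with 0 rises and a median of -0.02. The count was 2 without control libraries 1 or 2 or day 3 libraries 2 or 3, and 1 with plain moderation.

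Genes of hypoxia and glycolysis had 6 rises and 1 fall among 39 listed, with 32 not called and a median of 0.06. Day 3 lay above all controls in 16 of the 39 and in 10.3% of all listed genes. BNIP3, a mitochondrial protein of mitophagy and a HIF target, had 151.1, 152.9 and 155.0 CPM in control and 175.9, 176.6 and 169.8 CPM at day 3 (0.19, SE 0.0288, adjusted p = 0.000199; 0.0935 with plain moderation). Its relative BNIP3L rose by 0.13 (SE 0.0272, adjusted p = 0.00675), and ENO2, an enolase, by 0.18 (SE 0.0328, adjusted p = 0.00174). VEGFA, the endothelial growth factor (0.12, adjusted p = 0.0368), TXNIP, the glucose-sensing arrestin (0.14, adjusted p = 0.0182), and P4HA1, a collagen hydroxylase (0.10, adjusted p = 0.0428), rose, and ADM, a vasoactive peptide (-0.19, adjusted p = 0.0352), fell. HK2, a hexokinase, was at 0.10 and did not pass (adjusted p = 0.074). BNIP3 and ENO2 alone of these were called in every omission. BNIP3L was lost without control library 2 or day 3 library 2 (0.0795 and 0.12), and VEGFA and ADM in all 6 (up to 0.192 and 0.165); TXNIP was lost in all but that of control library 1 and P4HA1 in all but that of control library 3 (up to 0.123 and 0.201). With libraries centred on their median, VEGFA and P4HA1 were not called (0.0544 and 0.0594). The count of rises was 2 without control library 2 or day 3 library 2, 3 without day 3 libraries 1 or 3, 10 in the fit over 6 libraries and 0 with plain moderation, where VEGFA, for one, had an adjusted p of 0.29. BNIP3 and BNIP3L were also the 2 called genes of the 17 listed in the BCL2 family list; BCL2 itself was at -0.07 (adjusted p = 0.711).

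Few chaperone genes were called, and their differences were small. Of 23 heat shock genes HSPH1, a large cytosolic chaperone (-0.14, SE 0.0234, adjusted p = 0.000508), and STIP1, which links HSP70 and HSP90 (-0.12, SE 0.0274, adjusted p = 0.022), fell, 0 rose, and 11 lay below all controls. HSPH1 had 456.6, 469.9 and 480.0 CPM in control and 422.6, 419.2 and 433.0 CPM at day 3. Of 23 endoplasmic reticulum chaperone genes HSPA5, known as BiP (0.07, SE 0.0191, adjusted p = 0.0407), and SEL1L, of the degradation machinery (0.11, SE 0.0263, adjusted p = 0.0271), rose, 0 fell, and 9 lay above all controls. Over all listed genes, 10.1% lay below all controls and 10.3% above. The list medians were -0.04 and 0.04. The difference between the lists was not tested. HSPH1 was called in every omission, STIP1 in that of day 3 library 3 alone, SEL1L in that of control library 3 alone and HSPA5 in none (adjusted p up to 0.159, 0.183 and 0.227), and HSPA5 was not called with centred libraries (0.0611). None of the 4 was called with plain moderation (0.13 to 0.304).

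Growth genes had few calls. Over all listed genes, day 3 lay below all controls in 10.1% and above in 10.3%. Of 43 DNA replication genes, 20 had day 3 below all controls and 0 above, with a median of -0.05; 1 fell, E2F1, the S-phase transcription factor (-0.14, SE 0.0363, adjusted p = 0.047), which was named after its values were seen. Of 28 ribosome biogenesis genes, 10 lay below all controls and 0 above, the median was -0.05, and NOP2, a nucleolar methyltransferase (-0.13, SE 0.0298, adjusted p = 0.0128), was the 1 fall. Mitosis genes had 3 falls of 35, a median of -0.04 and 11 genes below all controls. They were CDC20, the activator of the anaphase complex (-0.12, SE 0.0254, adjusted p = 0.00801), FOXM1, a mitotic transcription factor (-0.11, SE 0.0223, adjusted p = 0.00766), and the kinase PLK1 (-0.11, SE 0.0289, adjusted p = 0.0461). FOXM1 had 337.6, 336.9 and 331.6 CPM in control and 309.7, 311.4 and 313.7 CPM at day 3, with no overlap. CDKN1A, the p21 inhibitor of cyclin-dependent kinases, rose from 41.52, 39.75 and 35.84 CPM to 47.29, 45.71 and 43.37 CPM (0.22, SE 0.0463, adjusted p = 0.00762). CCND1 was at -0.02 (adjusted p = 0.623). These are bulk RNA levels, in which fewer cells of a cycle phase and less RNA per cell cannot be told apart.

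None of these growth genes was called with plain moderation (adjusted p 0.0935 to 0.307). CDC20 was lost without control library 1 or day 3 libraries 1 or 3, FOXM1 without control library 2 or day 3 libraries 1 or 2, CDKN1A without control library 3 or day 3 libraries 1 or 2 and NOP2 without control library 1 or day 3 libraries 1 or 2, with adjusted p of 0.0546 to 0.122. PLK1 was lost in all 6 omissions (up to 0.192) and with centred libraries (0.0509), and E2F1 in all but that of control library 3 (up to 0.28). Mitosis genes with a fall numbered 1 without control libraries 1 or 2 or day 3 libraries 2 or 3, 0 without day 3 library 1, 5 without day 15 library 3 and 7 in the fit over 6 libraries. From day 3 to day 15, 17 of the 35 mitosis genes and 8 of the 43 replication genes rose and 0 fell. Over all listed genes 2.47% rose and 2.86% fell. Both lists had medians under 0 in the same day 3 libraries, which favours a rise in this test. The mitosis count was 10 without control library 2 and 5 without day 3 libraries 1 or 2. It was 7 and 8 without day 15 libraries 1 and 3, and 0 with plain moderation. The replication count was 5 without control library 2 or day 3 library 3, 1 without day 3 libraries 1 or 2, 2 and 4 without day 15 libraries 1 and 3, and 0 with plain moderation.

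Adhesion, matrix and epithelial genes showed single changes. Of 31 integrins and adhesion molecules NRCAM rose, while ICAM1, the leukocyte adhesion ligand (-0.16, SE 0.0395, adjusted p = 0.0351), and CD34, a sialomucin (-0.60, SE 0.137, adjusted p = 0.0167), fell. CD34 had 3.07, 2.70 and 2.98 CPM in control and 1.83, 2.16 and 1.74 CPM at day 3, all below the controls. It was lost without control libraries 1 or 3 or day 3 libraries 1 or 3 (0.0543 to 0.107) and ICAM1 in all 6 (up to 0.174). Of 28 matrix proteases and inhibitors, TIMP3, the matrix-bound inhibitor, fell from 646.1, 645.8 and 644.8 CPM to 572.6, 561.3 and 561.4 CPM (-0.19, SE 0.0206, adjusted p = 7.16e-07) and held in every omission and setting. It was 1 of 2 falls. ADAM9, a membrane sheddase (0.09, SE 0.0217, adjusted p = 0.0218), was the rise, lost in all omissions but that of control library 3 (up to 0.178). Among 26 epithelial genes KRT18 (-0.13, adjusted p = 0.00457) and KRT8 (-0.13, adjusted p = 0.00629), the neighbouring genes of simple epithelial keratins, and PKP2, a desmosome protein (-0.16, adjusted p = 0.00443), fell and 0 rose. KRT8 was lost without control libraries 1 or 2 or day 3 libraries 1 or 3, KRT18 without control library 1 or day 3 library 2 and PKP2 without day 3 library 1 (0.0528 to 0.0938), and none of the 3 was called with plain moderation (0.111 to 0.232). None of 27 mesenchymal and matrix genes was called by limma, with 4 higher and 3 lower at an unadjusted p under 0.05; VIM was at 0.04 (adjusted p = 0.323) and CD44 at -0.0057 (adjusted p = 0.945). Also without a call by limma were 30 genes of the ATF4 and amino acid response (4 higher and 1 lower at an unadjusted p under 0.05, median 0.01) and 31 genes of lysosome and autophagy (6 higher and 1 lower, median 0.03).

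**Figure D4:**
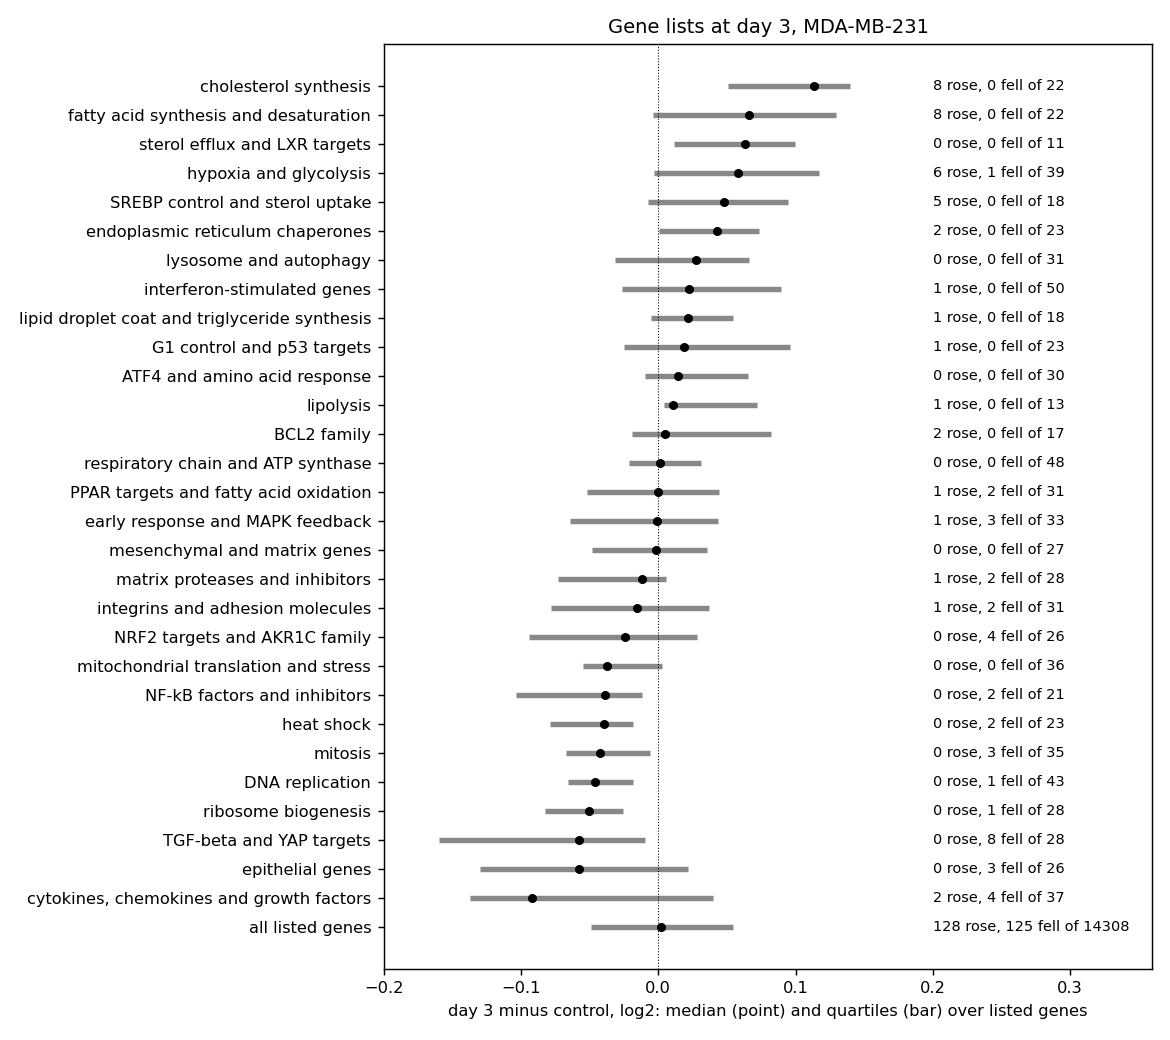
Points are the median and bars the quartiles of the day 3 minus control log2 difference over the listed genes of each pathway list drawn (marker lists of cell types, identity, luminal and histone genes are not drawn), with the number that rose and fell at the right and all 14308 genes in the bottom row. Of the lists drawn, cholesterol synthesis stands highest with a median of 0.11, cytokines and growth factors lowest at -0.09, and TGF-beta and YAP targets have the most falls, 8 of 28.

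T47D at day 3 was used to see where the response of MDA-MB-231 differs. The lines share no controls, their tables were scaled separately, and the difference between the 2 responses was tested in a fit over all 18 libraries on the 12666 genes in both tables. It was called for 311 of these genes (2.46%), among them 58 of the 211 shared genes that were called in MDA-MB-231. That fit gives each gene 1 variance for both lines, so its p-values borrow precision across lines. For TMEM154 its SE was 0.0752, against 0.092 in T47D alone. Of 14768 genes listed for T47D, 277 were called at day 3 (1.88%). Genes called in the same direction in both lines numbered 10, which is 4.74% of the 211 calls of MDA-MB-231 and 4.2% of the 238 shared calls of T47D, and 0 were called in opposite directions. Higher in both were G0S2, ADAM9, CENPT, FIG4, NUTF2, SAMD9L, SLC25A36 and TUBA1A, and lower in both were PEG10 and THBS1. In MDA-MB-231 the calls of FIG4 (0.23) and NUTF2 (0.12) were lost in all and in 5 of the 6 omissions (adjusted p up to 0.234 and 0.248), and that of TUBA1A (0.14) without control library 1 or day 3 library 3 (0.0618 and 0.0866).

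T47D had no called rise of these lipid genes: of the 21 genes 20 were listed there, 0 were called in limma under the same threshold, and their differences ran from -0.11 to 0.12. The 20 were picked for their rise in the MDA-MB-231 libraries that the test between lines also uses, which favours a difference. The difference between lines was called for 7 of the 20. It was 0.38 for SCD (adjusted p = 3.62e-10), where T47D was at -0.04, and 0.38 for INSIG1 (adjusted p = 6.19e-07), where T47D was at -0.08. HMGCS1 differed by 0.35 (adjusted p = 3e-05), IDI1 by 0.25 (adjusted p = 0.00111), FDPS by 0.22 (adjusted p = 0.00334) and FDFT1 by 0.145 (adjusted p = 0.00535). These 6 held without any single library, and ACSS2 (0.22, adjusted p = 0.0447) did not, with adjusted p up to 0.126. For FASN, SREBF1 and FADS2 the test did not pass (adjusted p = 0.473, 0.666 and 0.729), which does not show that the lines respond alike. LPIN1 differed by 0.38 (adjusted p = 0.00159).

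Falls differed between lines as well. The response of NFKBIA was 0.35 lower in MDA-MB-231 than in T47D (adjusted p = 0.000183), that of BIRC3 0.44 lower (adjusted p = 0.000691) and that of IER3 0.26 lower (adjusted p = 0.000415). TNFSF15, ATP1B1 and PPME1 differed by -0.73 (adjusted p = 0.000281), -0.31 (adjusted p = 2.19e-05) and -0.40 (adjusted p = 3.77e-07), all lower in MDA-MB-231. THBS1 had close values in both lines, -0.23 in MDA-MB-231 and -0.20 in T47D (adjusted p of the difference 0.782). ADAM9, SLC25A36, a pyrimidine nucleotide carrier, and SAMD9L, an interferon-induced gene, rose in both, by 0.09, 0.25 and 0.22 in MDA-MB-231 and by 1.04, 1.48 and 2.54 in T47D (adjusted p of the differences 2.41e-13, 1.64e-13 and 1.35e-11). CENPT, a kinetochore gene, rose by 0.32 and 0.33 (adjusted p of the difference 0.983). PEG10, a retrotransposon-derived gene, fell by 0.11 and 0.34 (adjusted p of the difference 0.00424). Of 50 interferon-stimulated genes SAMD9L was the 1 called in MDA-MB-231, where the median was 0.02, and in T47D 48 rose with a median of 1.96. SAMD9L was not called in MDA-MB-231 without control library 2 (0.0604) or with plain moderation (0.141), and PEG10 was called without control library 1 alone of the 6 omissions (up to 0.133 in the others). GREB1, an estrogen response gene, had 1.51, 1.54 and 1.43 CPM in control and 2.15, 2.08 and 2.08 CPM at day 3 in MDA-MB-231, without overlap but not called (0.48, adjusted p = 0.0763); its difference from T47D, where it was at 0.04, was called (0.43, adjusted p = 3e-05).

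**Figure D5:**
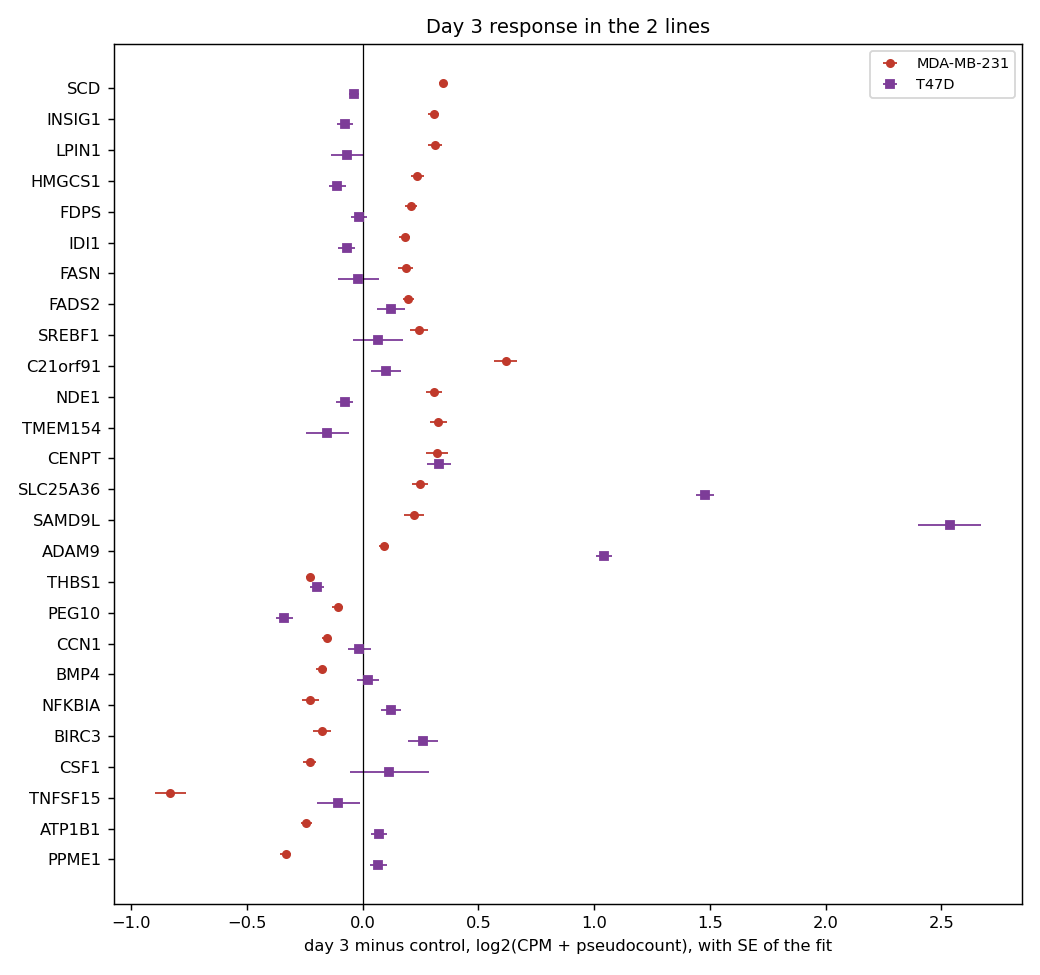
Points are day 3 minus control log2 differences with the SE of the fit, for MDA-MB-231 (red circles) and T47D (purple squares), each within its own table. The lipid genes at the top have higher values in MDA-MB-231, but the difference was not called for FASN, FADS2 and SREBF1. In T47D these lipid genes run from -0.11 (HMGCS1) to 0.12 (FADS2). SAMD9L, SLC25A36 and ADAM9 rose more in T47D, and CENPT and THBS1 lie close together.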

How the data were processed

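RNA-seq of MDA-MB-231 and T47D was aligned with STAR to GRCh38.p13, counted with featureCounts and handled in limma, per the submitters' processing notes, where versions and roles are absent. The authors deposited log2 CPM values, 1 table per line; for the strand setting, low-count filter and normalization the entry is "not given in the sources used here". From the values, each is log2 of CPM plus a pseudocount of 3 reads (0.0688 CPM in MDA-MB-231), and 100% of values came out as whole reads within 0.1 of a read. That scale understates changes of genes with few reads.

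Group means were fitted to the 9 MDA-MB-231 libraries with limma 3.58.1 (R 4.3.3, statmod 1.5.0), with a variance trend and robust moderation, and Benjamini-Hochberg adjustment over all 14308 genes at 0.05. Day 15 was set against day 3 in the same fit, and the responses of the 2 lines against each other in a fit over 18 libraries on 12666 shared genes. "Plain moderation" is the fit without trend and robust options, and the other alternatives were a replicate block, a filter at a mean log2 CPM of 1, a further pseudocount of 1 CPM, limma's voom on the recovered reads, median-centred libraries, a fit over 6 libraries and the omission of each library. Tables and figures used Python 3.11.15, pandas 2.3.3, scipy 1.17.1 and matplotlib 3.10.9. The fit was also run on simulated reads, with the same variance setting for every gene and library. The real libraries vary unequally, so that run cannot show how the calls depend on the variance model. No column was left unused (0).

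Members and the 35 gene lists were chosen with earlier results of these data known. Named genes are G0S2, the 12 largest called rises and falls with a mean log2 CPM of at least 1 and groups that do not overlap, the 10 smallest p in each direction, up to 6 called members of each list with 2 or more called, and a panel of 20 genes, of which 19 were listed. Other genes with values were chosen after those were seen, among them DHCR7, ACLY, ACSL3, CCN1, CCN2, P4HA1, SQLE, CYP51A1, ACACA, E2F1, NOP2, CDKN1A, WDR37, LIPE, MGLL, CCL2, FUCA1, GREB1 and those called in both lines. Promoter windows were taken from RefSeq on GRCh38.p14, 250 bases before each start, and gene positions from GENCODE release 29. Some members that the lists count are not reported here by name.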

Additional observations from a re-analysis of the deposited data

Results flagged for a closer look

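The day 3 response differed between the lines, by an interaction test in limma over both lines, for 35 genes named above, with adjusted p up to 0.0449. Values are the log2 response of MDA-MB-231 minus that of T47D. Many of the genes were named for their day 3 difference in MDA-MB-231, which is part of this value. It was above 0 for MPPE1 (0.69), C21orf91 (0.52), ZNF641 (0.43), SCD (0.38), INSIG1 (0.38), LPIN1 (0.38), NDE1 (0.39), TMEM154 (0.48) and HMGCS1 (0.35). Further positive differences were those of FDPS (0.22), IDI1 (0.25), FDFT1 (0.145), ACSS2 (0.22), BNIP3 (0.24), BNIP3L (0.16), SEL1L (0.21), GREB1 (0.43) and PEG10 (0.23). Further positive differences were those of CYP51A1 (0.17) and WDR37 (0.24). The difference was below 0 for G0S2 (-4.81), TNFSF15 (-0.73), CD34 (-0.62), PPME1 (-0.40), ATP1B1 (-0.31), NFKBIA (-0.35), BIRC3 (-0.44) and DUSP1 (-0.39). Negative differences were also those of IER3 (-0.26), BMP4 (-0.20), ADAM9 (-0.95), KRT18 (-0.19), KRT8 (-0.20), SLC25A36 (-1.23) and SAMD9L (-2.31). For G0S2 the log2 difference was larger in T47D, whose controls had 0.90, 0.28 and 0.38 CPM, but its day 3 level there, 882.7, 855.3 and 844.3 CPM, was below the 1484, 1506 and 1429 CPM of MDA-MB-231, in tables scaled separately. For ADAM9, SLC25A36 and SAMD9L a negative value means a larger rise in T47D. Of the 35 differences 25 were called in every omission and setting apart from the replicate block, with GREB1 not tested under the filter. The other 10, CD34, ACSS2, BNIP3, BNIP3L, DUSP1, BMP4, KRT18, KRT8, CYP51A1 and WDR37, were each lost in at least 1 omission, with adjusted p up to 0.153.

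Day 15 differed from day 3 in MDA-MB-231, tested directly between the groups in limma, for 49 named genes, with adjusted p up to 0.0445. Values are day 15 minus day 3 in log2. Many of the genes were named for their day 3 difference from control, which shares the day 3 libraries with this test. Lower at day 15 were G0S2 (-0.30), SLCO4C1 (-0.28), C6orf223 (-0.24), TNFSF15 (-0.30), ALPP (-0.21), SCD (-0.35), INSIG1 (-0.23), LPIN1 (-0.17) and TMEM154 (-0.15). A lower level was also found for FADS2 (-0.24), HMGCS1 (-0.10), FDPS (-0.16), LSS (-0.24), MSMO1 (-0.12), FDFT1 (-0.083), SREBF1 (-0.40) and STARD4 (-0.12). A lower level was also found for ACSS2 (-0.19), FASN (-0.36), FADS1 (-0.0845), ACSL1 (-0.15), BNIP3 (-0.12), ICAM1 (-0.27), KRT8 (-0.10) and HSPA5 (-0.070). A lower level was also found for PNPLA2 (-0.16), SREBF2 (-0.14), ABCA1 (-0.53), CXCL8 (-0.46), DHCR7 (-0.18), ACLY (-0.14), LIPG (-0.44), FUCA1 (-0.13) and SLC25A36 (-0.13). A lower level was also found for TUBA1A (-0.11), CDKN1A (-0.20), ACACA (-0.088), MGLL (-0.12) and CCL2 (-0.37). Higher at day 15 were UCA1 (0.19), PPME1 (0.13), NQO1 (0.26), HSPH1 (0.11), STIP1 (0.14), PLK1 (0.10), FOXM1 (0.087), VIM (0.077), NOP2 (0.10) and CYP1B1 (0.30). Of the 49, 10 were called in every omission and setting apart from the replicate block, namely SCD, INSIG1, FADS2, SREBF1, FASN, ICAM1, NQO1, ABCA1, LIPG and CYP1B1. Another 10, G0S2, LPIN1, PPME1, FDPS, LSS, MSMO1, ACSS2, ACSL1, DHCR7 and ACLY, were lost with plain moderation alone. The remaining 29 were each lost in at least 1 omission, and adjusted p among those lost went up to 0.235.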

How the results depend on the processing

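The 253 calls at day 3 became 637 with a replicate block, 63 with plain moderation and 476 in the fit over 6 libraries, and 119 to 418 when single libraries were left out. The 763 calls of day 15 against day 3 became 1788 with the replicate block and 32 with plain moderation, and 124 to 1664 in the omissions. The 311 genes whose response differed between lines stayed within 1.5 times under all alternatives run (232 to 314 in the omissions). Same-numbered control and day 3 libraries correlated at 0.057, 0.007 and 0.161 in their deviations from the group means. Replicate 3 of day 15 correlated at 0.28 with that of control and at 0.192 with that of day 3. Replicates 1 and 2 lay between -0.031 and 0.139 in these comparisons, and replicate 3 reached at most -0.032 and -0.067 with other numbers. Control replicate 1 reached 0.194 with a day 15 library of another number, against 0.055 with that of its own number. The numbers were not taken to pair the samples, and the block is given here alone. What the replicate 3 libraries share was not tested. Of 117 named calls 0 changed direction in any alternative; plain moderation ended 75, centring 8, and single control or day 3 libraries 29 to 44, while the block, the filter, the added pseudocount, voom and the 6-library fit ended 0. The cause was not tested. With 3 libraries a group, small differences rest on the shared variance estimate, and genes under about 100 reads, 8 of the called ones, are limited by depth.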

Other observations

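Called genes that lie next to each other were listed after the values were seen. Among 14014 listed genes matched to RefSeq, 14 neighbouring pairs were both called, and all 14 pairs moved in the same direction. Among them, DDAH1, which breaks down methylarginines (-0.09), lies next to CCN1 (-0.16), S100A3 (-0.29) next to S100A2 (-0.25), IGFBP4, a binding protein of insulin-like growth factors (-0.17), next to TNS4, a focal adhesion tensin (-0.23), and MRPS6 (-0.18) next to SLC5A3, the myo-inositol transporter (-0.17). CCNG2, an atypical cyclin (0.18), lies next to CNOT6L, a deadenylase (0.15), VEGFA (0.12) next to C6orf223 (0.43), and LRRC61 (-0.31) next to ZBED6CL (-0.42). Values are day 3 minus control in log2. Whether such pairs share reads was not tested.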
